A study of Sus scrofa with 12 samples.

Results

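The genes described here are 9 genes of the blood vessel wall, *ACTA2*, *MYH11*, *TAGLN*, *CNN1*, *LMOD1*, *MYLK*, *RGS5*, *PDGFRB* and *NOTCH3*, among 28195 annotated genes of the pig. They were chosen by name and not by their values. RNA was sequenced from the loin muscle (*Longissimus dorsi*) of 12 castrated males of a closed purebred Iberian line, with no siblings among them, fattened outdoors on acorns and grass and sampled at slaughter, 1 library per animal. The 6 animals of the Tough group had the highest estimated breeding values for shear force, the force needed to cut the cooked meat, and the 6 of the Tender group were among those with the lowest. Shear force ranged from 7.32 to 10.63 kg/cm2 in Tough and from 2.18 to 3.43 kg/cm2 in Tender animals. The groups are defined by breeding value, and neither the slaughter batch nor the sequencing lane of an animal is given in the labels, so a batch that ran with the groups could not be told apart from them.

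Arteries and arterioles of muscle are wrapped in smooth muscle cells, and capillaries in pericytes. Together these are called mural cells. Smooth muscle contracts when myosin light chain kinase, encoded by *MYLK*, phosphorylates the light chain of smooth muscle myosin, whose heavy chain is encoded by *MYH11*. The myosin then pulls on smooth muscle actin, the product of *ACTA2*, which carries calponin (*CNN1*) and transgelin (*TAGLN*) and is nucleated by leiomodin (*LMOD1*). Most of these contractile genes are known targets of serum response factor (SRF), which binds a DNA element named the CArG box. Pericytes are recruited to vessels through the receptor PDGFRB, are held in a mature state through the receptor NOTCH3, and express *RGS5*, an inhibitor of G protein signalling.

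In whole loin the vessel wall is a minor part of the tissue, and fewer mural cells cannot be told apart from less RNA per mural cell. Levels are given as FPKM (fragments mapped to a gene, scaled to its length and to the depth of the library) of a gene, summed over the transcripts that the authors assembled in each library. A transcript counted for a gene when at least 50% of its exonic bases lay in that gene on the same strand. By this rule 8 of the 9 genes had a value and *RGS5* had none, for a reason given with its values. A second measure, FPKM per exon base, took the part of every transcript that lay in the exons of a gene, with no minimum share, and gave a value for all 9.

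No gene of the 9 met the threshold for a difference between Tough and Tender (an unadjusted p up to 0.05 and an adjusted p up to 0.10 from limma, with Benjamini-Hochberg adjustment over 9017 genes, and a change of 1.5-fold), and 0% of all genes tested did. At an unadjusted p of at most 0.05 the count was 1 of 8, *LMOD1*, against a background of 2.47% of all genes tested, or 0.71% higher in Tough. Of the 8 genes, 7 had a fitted mean that was higher in Tough, with a median log2 fold change of 0.077. The median of all 9017 genes was -0.040, and 3580 of them had a fitted mean that was higher in Tough. That number moved with the scaling, to 4481 after median-of-ratios scaling. The groups overlapped for every one of the 9 genes, whereas every Tough library lay above every Tender library in 0.0222% of all genes tested and every Tender library above every Tough library in 0.0776%. Per exon base these shares were 0.0108% and 0.0755%.

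Some of the sequences at these genes bear on how the levels below were obtained, and they are given first, 5′ to 3′ from the Sscrofa11.1 genome. The first set shows where CArG boxes stood near the median starts of the assembled transcripts, with the boxes in capitals. Windows of 250 bases before to 50 after the start were searched on both strands for CC, 6 bases of A or T, and GG. A box of this strict form was found in 1.53% of 19560 protein-coding genes at their annotated starts. *CNN1* and *MYLK* had 1 each, at base -79 and base -172 from the median start of their assembled transcripts, and none at their annotated starts. The *MYLK* starts were spread, and their median fell between them. The most abundant transcript of several exons began before the box in Tough 2 (base 136726138) and Tender 6 (base 136726100). It began after the box in Tough 3 (base 136726471) and far past it in Tough 5 (base 136736349). A match is a description of these letters only. The windows of 6 of the other genes, *ACTA2*, *MYH11*, *LMOD1*, *RGS5*, *PDGFRB* and *NOTCH3*, held none of this strict form. Boxes with another base in the core, or farther from the start, were not searched for. The median assembled start of *NOTCH3*, base 62379411, lay inside the gene, which is annotated from base 62364507. That window was thus not at the start of the gene.
CNN1, chr2:70184423-70184492, plus strand: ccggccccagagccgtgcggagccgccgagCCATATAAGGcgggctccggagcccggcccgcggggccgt
MYLK, chr13:136726328-136726397, plus strand: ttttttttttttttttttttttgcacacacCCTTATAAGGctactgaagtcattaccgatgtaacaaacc

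The second set shows an alternative exon of *MYH11* and the ends of *RGS5*. The *MYH11* exon of 39 bases is in capitals and lies between the splice site bases in lower case. It is absent from the annotated model of the gene but was assembled in 9 of 12 libraries. For *RGS5* the 30 bases shown near each end hold the signal for cleavage and polyadenylation in capitals. The stretch near the annotated end stops at base 87340809, short of that end at base 87340816. One copy stood 18 bases before the median end of the assembled transcripts, and another, of the more common form, 25 bases before the annotated end of the gene.
MYH11 exon, chr3:7139018-7139060, plus strand: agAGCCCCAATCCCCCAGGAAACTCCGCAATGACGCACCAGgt
RGS5 assembled end, chr4:87344223-87344252, plus strand: cacatatattttATTAAAtatatatctata
RGS5 annotated end, chr4:87340780-87340809, plus strand: tttgaaaggattAATAAAaatctgaaatgt

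*ACTA2* (chr14:100868145-100886732, minus strand) was the most abundant of the 9 genes. Its level was 11.9 FPKM in the lowest, 20.1 in the median and 41.2 in the highest Tough library, against 14.5, 16.3 and 22.2 FPKM in the Tender libraries. Tough 3 and Tough 4 stood above every Tender library, while Tough 6 stood below all of them, so the spread was wider in Tough. The means were 23.9 ± 11.4 FPKM in Tough and 17.0 ± 2.84 FPKM in Tender (SD, n = 6 each). The log2 fold change was 0.36, with a 95% interval from -0.22 to 0.95 (limma p = 0.199, exact permutation p = 0.258, two-sided). Without Tough 6 it was 0.53 (limma p = 0.0490, exact permutation p = 0.0541). One assembled transcript was found in all libraries but Tough 1, which had 2. When transcripts with less than 90% of their bases in the gene were left out, the log2 fold change was 0.90 (limma p = 0.516, exact permutation p = 0.558). The coding sequence of *ACTA2* is close to that of the other muscle actins, so reads could be split among them. *ACTA1*, the skeletal actin, was listed at 0 in all 12 libraries. A 0 can be a transcript that was not assembled or not assigned, so it does not show that skeletal actin reads were absent. The split of reads among the actins was not tested. *ACTC1*, the cardiac actin, had a median of 3.71 FPKM in Tough and 2.72 FPKM in Tender and was highest in Tough 4, at 81.8 FPKM, 1 of the 2 libraries in which *ACTA2* was high.

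*MYH11* (chr3:7002667-7143093, plus strand) had 1.08, 1.52 and 7.46 FPKM in the lowest, median and highest Tough library, and 0.796, 1.60 and 2.5 FPKM in the Tender libraries. The high value is that of Tough 3 alone, and the other 5 Tough libraries lay between 1.08 and 2.07 FPKM, inside the Tender range. The log2 fold change of 0.31 (95% interval -0.52 to 1.14, limma p = 0.432, exact permutation p = 0.539) became -0.031 without Tough 3.

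Tough 3 also differed in the form of the *MYH11* transcript. In mammals, skipping of a small exon near the end of the message gives the SM1 form of the myosin tail and its inclusion the SM2 form. Transcripts with the 39-base exon made up 70.9% of the FPKM of those *MYH11* transcripts that span its position in Tough 3. Pieces of the gene that were assembled apart and do not reach the exon were left out of this share. In the other 8 libraries in which the exon was assembled, the share was 21.2% to 40.8%. No transcript with the exon was assembled in Tough 2, Tender 4 and Tender 5. Of the 9 libraries with the exon, 5 were Tough and 4 were Tender. The exon is 39 bases of a long message, and the shares come from the estimates of the assembler, not from counts of spliced reads.

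*CNN1* (chr2:70183370-70190756, plus strand) had 6.81, 13.0 and 18.3 FPKM in the lowest, median and highest Tough library, against 6.91, 12.5 and 16.6 FPKM in Tender libraries. The groups covered nearly the same range, and the log2 fold change was 0.12 (95% interval -0.44 to 0.67, limma p = 0.660, exact permutation p = 0.684). Each library but Tough 6 held transcripts from an upstream first exon, and the other transcripts, most of them from the start beside the CArG box shown above, were counted as 1 class. The upstream start gave 39.9% of the *CNN1* transcript FPKM in Tough 3, 0% in Tough 6 and 14.0% to 17.5% in the other Tough libraries. Of the Tender libraries, Tender 6 had 31.7%, Tender 4 had 27.5% and the remaining 4 had 11.4% to 17.4%. The mean share was 17.3 ± 12.8% in Tough and 19.0 ± 8.57% in Tender (SD, n = 6 each; exact permutation p = 0.812).

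**Figure D1:**
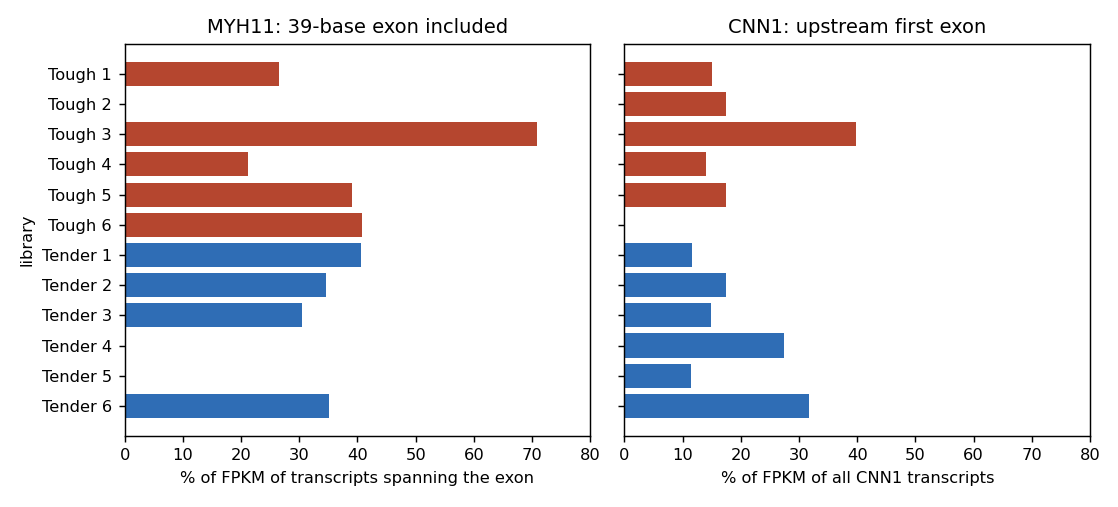
Share of transcript FPKM (percent, horizontal axis) in each of the 6 Tough (red) and 6 Tender (blue) libraries, for *MYH11* transcripts with the 39-base exon, of those that span its position (left), and *CNN1* transcripts with the upstream first exon, of all *CNN1* transcripts (right). Tough 3 has the highest share in both panels, 70.9% and 39.9%; an empty row means that no such transcript was assembled.

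*TAGLN* (chr9:44561756-44567385, plus strand) had 2.38, 4.63 and 6.46 FPKM in the lowest, median and highest Tough library, against 3.14, 3.82 and 6.44 FPKM in the Tender libraries. Its mean was 4.47 ± 1.80 FPKM in Tough and 4.19 ± 1.22 FPKM in Tender (SD, n = 6 each). The log2 fold change was 0.033 (95% interval -0.52 to 0.59, limma p = 0.899, exact permutation p = 0.887). The highest library of each group, Tough 1 and Tender 6, differed by less than the spread of either group, and the direction changed sign when single libraries were left out.

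*MYLK* (chr13:136509878-136809674, plus strand) was the least abundant of the 9, with 0.421, 0.577 and 1.11 FPKM in the lowest, median and highest Tough library and 0.329, 0.595 and 0.990 FPKM in the Tender libraries. Its log2 fold change was 0.017 (95% interval -0.37 to 0.40, limma p = 0.925, exact permutation p = 0.924), and Tough 3 was again the highest library. The gene encodes a long and a short form of the kinase, and a small protein from its last exons known as telokin. No assembled transcript began in the first 216222 bases of the annotated gene, and none began at the annotated start. Transcripts of 15 or more exons were assembled in 11 libraries at 0.230 to 1.53 FPKM each, and 3-exon transcripts from the 3′ end, the region of telokin, in 6 libraries at 0.289 to 0.925 FPKM each.

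*LMOD1* (chr10:24165293-24194823, minus strand) was the 1 gene of the 9 with an unadjusted p below 0.05. Summed over assigned transcripts, its FPKM was 6.04, 9.47, 8.43, 16.9, 8.71 and 11.7 in Tough 1 to 6. It was 10.2 in Tender 2 and 5.32 in Tender 6, and the gene was listed at 0 in Tender 1, 3, 4 and 5. Every Tough library thus had a value above 0 and 4 of 6 Tender libraries did not, while Tender 2 exceeded 4 of the 6 Tough animals. The fitted log2 fold change was 3.03 with a standard error of 0.79 (limma p = 0.00223, adjusted p = 0.99993, exact permutation p = 0.0152). Its size depends on the value of 0.5 added before the logarithm, and it was 4.54 with 0.1 and 2.40 with 1.

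In 3 of the 4 Tender libraries listed at 0, an *LMOD1* transcript had been assembled but not assigned. A 3-exon transcript with the annotated introns was present in 11 of 12 libraries, all but Tender 5. In 7 libraries its last exon stopped 313 to 507 bases short of the annotated end of the gene, and the transcript was 2238 to 3207 bases long. In Tough 1 it ran 1732 bases past that end. In Tender 1, 3 and 4 it ran 3869 to 3870 bases past, which made it 6510 to 6785 bases long and left only 40.6% to 43.0% of it in the gene, under the 50% that the rule asks for. The extension ended 81 to 82 bases inside *SHISA4*, the next gene, which runs towards *LMOD1* on the plus strand (chr10:24158648-24161504). *SHISA4* was more abundant, at 34.4 to 170 FPKM per exon base in Tough and 60.2 to 206 FPKM per exon base in Tender. No source used here states that the reads kept their strand, so reads between these 2 gene ends cannot be given to 1 of them with certainty. At the annotated end of *LMOD1*, the last 40 bases held neither form of the polyadenylation signal shown for *RGS5*.

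Counted per exon base, *LMOD1* had 3.81, 9.47, 8.43, 16.9, 8.71 and 11.7 FPKM in Tough 1 to 6 and 2.78, 10.2, 3.40, 3.88, 0 and 5.32 FPKM in Tender 1 to 6. Among them, 5 of 6 Tough libraries lay above 5 of the 6 Tender libraries. Tough 1 and Tender 2 broke this order, so the ranges of the groups overlapped between 3.81 and 10.2 FPKM. The log2 fold change fell to 1.46 with a standard error of 0.58 (95% interval 0.21 to 2.71, limma p = 0.0256, adjusted p = 0.99979, exact permutation p = 0.0346). By this measure 2.86% of 9273 genes had an unadjusted p of at most 0.05, and 0.723% were also higher in Tough. Without Tender 5 it was 0.90 (limma p = 0.0260, exact permutation p = 0.0584), and without Tough 4 it was 1.28 (limma p = 0.0565, exact permutation p = 0.0758). The FPKM of the transcript itself, which is an average over its whole length, was 3.83 to 5.37 in the 3 libraries with the long extension, 4.69 in Tough 1 and 7.94 to 19.2 in the 7 libraries with the short form. Among the 11 libraries with an *LMOD1* transcript, those with an extended end had the lowest transcript level. That average includes the extension, and the value per exon base is computed from it, so both depend on the length assembled. The part that the extension had in the difference between the groups was not tested.

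**Figure D2:**
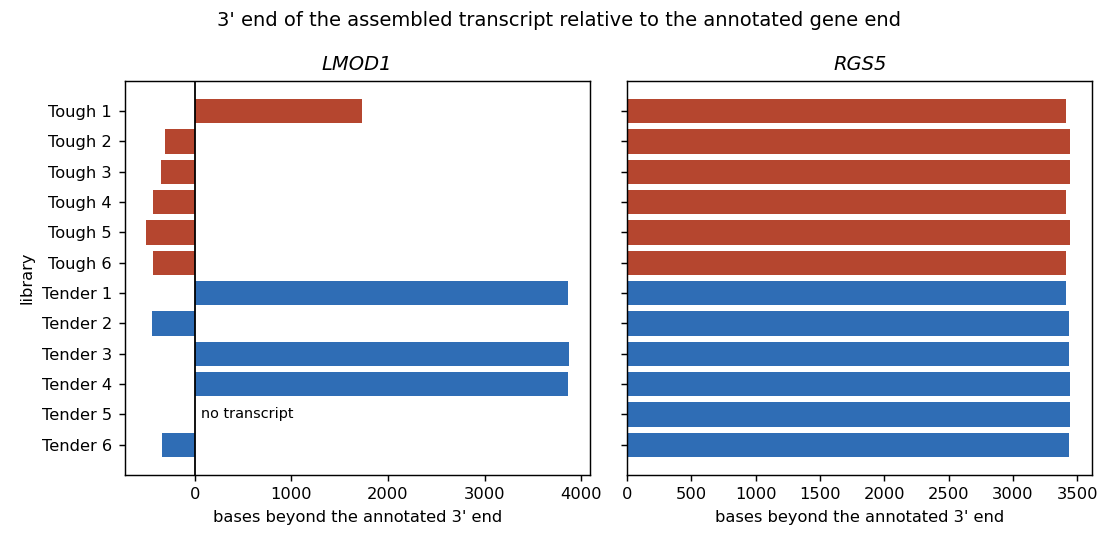
Position of the 3′ end of the assembled *LMOD1* (left) and *RGS5* (right) transcript relative to the annotated end of the gene (bases, horizontal axis; above 0 is past the annotated end) in the 6 Tough (red) and 6 Tender (blue) libraries. *LMOD1* ends 3869 to 3870 bases past the annotated end in Tender 1, 3 and 4, 1732 bases past it in Tough 1 and short of it in 7 libraries, whereas *RGS5* ends 3408 to 3443 bases past it in all 12.

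*RGS5* (chr4:87286953-87340816, plus strand) had a like extension in every library, and for this reason none of its transcripts met the rule. Each library held 1 transcript of 5 exons with all the annotated introns, which ended 3408 to 3443 bases past the annotated end, so that 37.1% to 37.5% of its bases lay in the gene. All 12 ends fell within 35 bases of each other. Those of Tough 1, Tough 4, Tough 6 and Tender 1 (base 87344224 to 87344227) lay before the polyadenylation signal shown above, and the others past it. Per exon base its level was 5.24, 9.74 and 13.2 FPKM in the lowest, median and highest Tough library, against 4.13, 9.47 and 24.0 FPKM in the Tender libraries. The medians were close, and the Tender group was the wider one, with Tender 4 and Tender 6 above every Tough library and Tender 2 below them all. The mean was 9.37 ± 2.66 FPKM per exon base in Tough and 12.4 ± 7.98 in Tender (SD, n = 6 each). The log2 fold change was -0.20 (95% interval -0.99 to 0.58, limma p = 0.588, exact permutation p = 0.630), and 0.029 without Tender 4. The interval that the authors' program gives for each transcript was 2.68% to 7.05% of the level on each side for *RGS5*, where the highest library had 5.8 times the level of the lowest.

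*PDGFRB* (chr2:151155753-151192818, minus strand) had 1.79, 2.76 and 5.65 FPKM in the lowest, median and highest Tough library and 2.29, 2.96 and 5.13 FPKM in the Tender libraries. The Tender range lay inside the Tough range. The means were 3.25 ± 1.43 FPKM in Tough and 3.16 ± 1.02 FPKM in Tender (SD, n = 6 each), with a log2 fold change of -0.0082 (95% interval -0.54 to 0.52, limma p = 0.974, exact permutation p = 0.970). The mean of the logarithms was thus a little lower in Tough and the mean FPKM a little higher, and the sign also turned with the scaling (0.032 after median-of-ratios scaling and 0.030 after quantile normalization).

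*NOTCH3* (chr2:62364507-62402348, plus strand) had 1.49, 1.63 and 3.36 FPKM in the lowest, median and highest Tough library and 1.44, 1.82 and 2.75 FPKM in the Tender libraries. The groups again covered nearly the same range. Its log2 fold change was 0.040 (95% interval -0.39 to 0.46, limma p = 0.843, exact permutation p = 0.848).

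**Figure D3:**
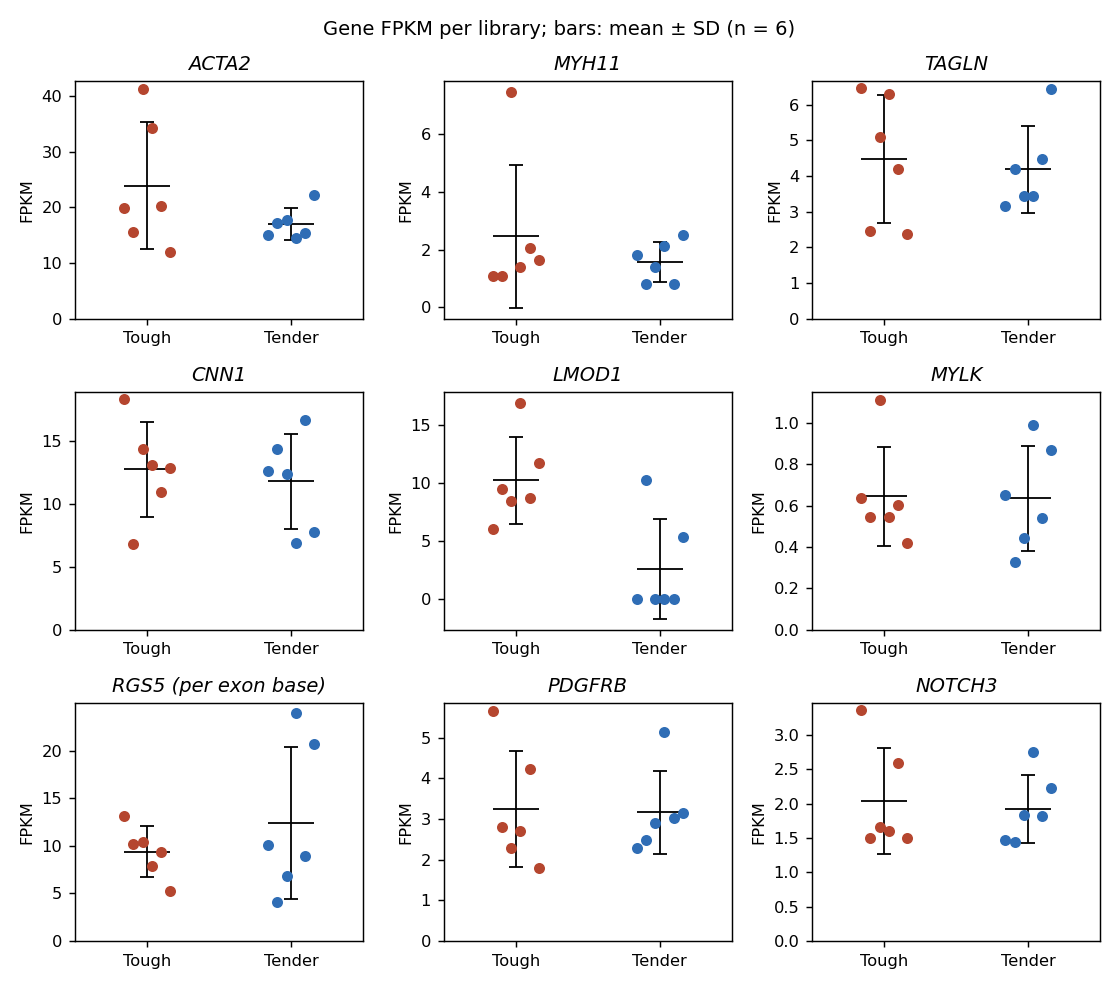
Level of each gene (FPKM, vertical axis, each panel with its own scale) in the 6 Tough (red, left) and 6 Tender (blue, right) libraries; *RGS5* is given per exon base. Points are libraries and bars the mean ± SD (n = 6); the groups overlap in all 9 panels, 4 Tender libraries are listed at 0 for *LMOD1*, and Tough 3 stands apart at 7.46 FPKM for *MYH11*.

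Compared per exon base over all 12 libraries, *ACTA2* had the highest mean level of the 9 (19.2 ± 8.54 FPKM, SD), followed by *CNN1* (12.2), *RGS5* (10.9), *LMOD1* (7.05), *TAGLN* (4.2), *PDGFRB* (3.13), *MYH11* (2.01), *NOTCH3* (1.97) and *MYLK* (0.616). *MYLK* was below *NOTCH3* in 12 of 12 libraries, and *PDGFRB* was above *MYH11* in 11. *MYH11* exceeded *NOTCH3* in only 4 of 12 libraries, so these 2 neighbours did not differ beyond their spread, and *LMOD1* exceeded *TAGLN* in 7. The other neighbours kept their order in 9 of 12 libraries. The level of a gene by this measure is an average over all annotated exons, and is lower where the transcripts cover a part of them, as in *TAGLN*, whose transcripts were 635 to 860 bases long against 1478 annotated exonic bases.

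The 9 genes did not move as 1 block from animal to animal. Over the 36 pairs of genes and the 12 libraries, the median Pearson r of log2(FPKM per exon base + 0.5) was 0.250 (0.152 after median-of-ratios scaling), 22 pairs were positive, and 3 had an adjusted p of at most 0.05 (permutation tests with 100000 resamples, Benjamini-Hochberg over the 36 pairs). *PDGFRB* and *NOTCH3*, the 2 receptors, were the closest pair, with r = 0.937 and Spearman's rho = 0.874 (n = 12, permutation p = 2.0e-05 for r and 0.00030 for rho, adjusted p = 0.00072 and 0.0054). Both were high in Tough 1, Tender 4 and Tough 5. Without Tough 1 and Tender 4 r was 0.836, and after median-of-ratios scaling, which gave its largest factors to Tender 4 (1.30) and Tough 1 (1.12), it was 0.888. The summed level of 9 fibroblast markers was also highest in Tough 1, at 257 FPKM, and was 182 in Tender 4 and 188 in Tough 5, against 84.3 to 200 in the other 9 libraries. *PDGFRB* is also expressed by fibroblasts, and their part in this relation was not tested.

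*MYLK* and *RGS5* were the second pair, with r = 0.856 and rho = 0.909 (n = 12, permutation p = 0.00054 and 0.00015, adjusted p = 0.0097 and 0.0054). Their r was 0.974 without Tough 3 and Tender 4 and 0.790 after scaling. The 2 libraries left out for a pair were those farthest from the median of its first-named gene, here *MYLK*. Tough 3 also lay off the line of the other libraries, so the value of 0.974 does not show a firmer relation. *MYH11* and *MYLK* had r = 0.749 (n = 12, permutation p = 0.00248, adjusted p = 0.0298) and rho = 0.713 (permutation p = 0.0121, adjusted p = 0.109), and r = 0.552 without Tough 3 and Tender 2. *ACTA2* and *TAGLN* missed the threshold by r (0.591, permutation p = 0.0413, adjusted p = 0.248) and passed it by rho (0.790, permutation p = 0.00334, adjusted p = 0.0401). With each gene centred on its group means, r was 0.938 for *PDGFRB* and *NOTCH3* and 0.867 for *MYLK* and *RGS5*, so both relations were as large within the groups.

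**Figure D4:**
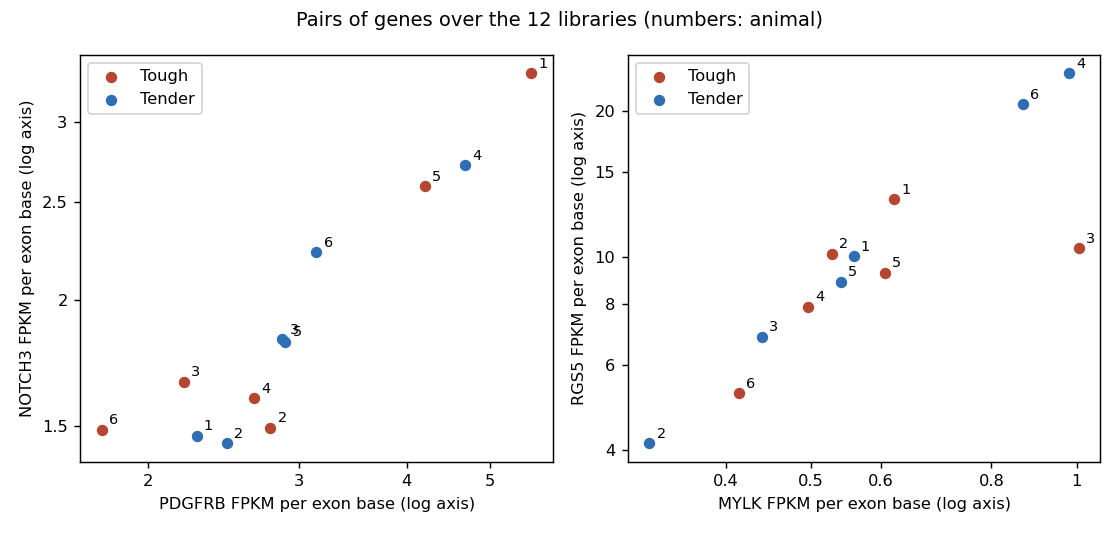
*NOTCH3* against *PDGFRB* (left) and *RGS5* against *MYLK* (right), in FPKM per exon base on log axes, in the 6 Tough (red) and 6 Tender (blue) libraries, numbered by animal. The left pair has r = 0.937; in the right pair (r = 0.856) Tough 3 lies below the line of the other libraries, at a *MYLK* level near that of Tender 4 but with less *RGS5*.

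Seen by library, Tough 3 had the highest level of *ACTA2*, *MYH11* and *MYLK*, Tough 1 of 4 genes, *TAGLN*, *CNN1*, *PDGFRB* and *NOTCH3*, Tough 4 of *LMOD1* and Tender 4 of *RGS5*. Per exon base, Tender 2 had the lowest level of 4 of the 9 genes and Tough 6 of 3. By assigned transcripts the lowest library for *MYH11* was Tender 5, at nearly the same level as Tender 2. Among 19 further smooth muscle genes with a value, Tough 3 was the highest library for 6 and Tender 4 for 5, and among 13 further pericyte genes Tough 1 and Tender 4 were the highest for 4 each. These libraries were singled out after their values were seen. The FPKM were not scaled further between libraries, and median-of-ratios scaling gave its largest factors to Tender 4 (1.30) and Tough 1 (1.12). The share of all genes that were highest in each library was not counted, so these counts are not read as a trait of vessel wall genes. *ACTG2*, the enteric smooth muscle actin, reached 2.62 FPKM in Tough 3 alone. It was at most 0.645 FPKM in the other Tough libraries and 0.537 FPKM in the Tender libraries, and was listed at 0 in 5 of 12 libraries.

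**Figure D5:**
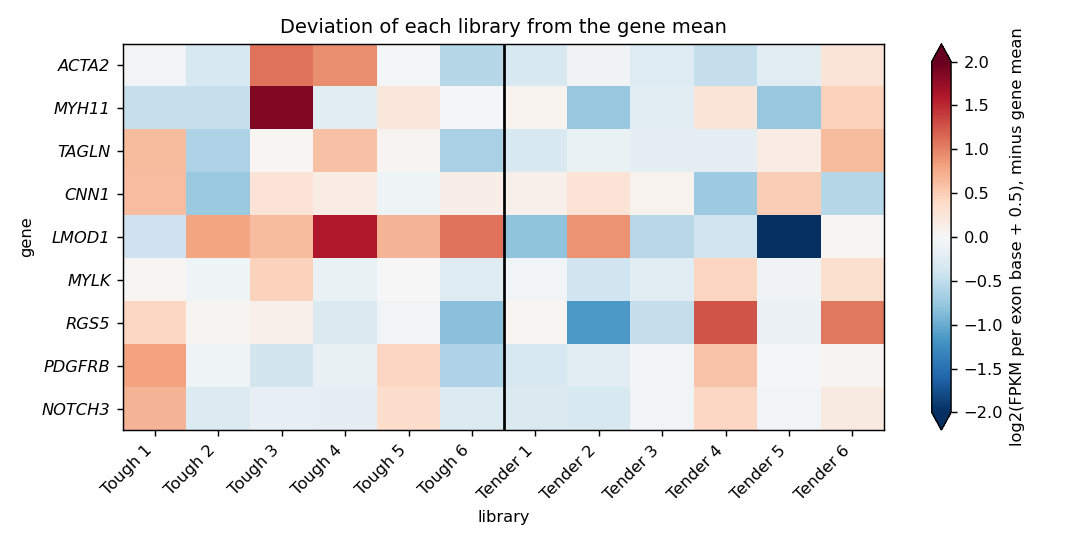
Deviation of each library (columns, 6 Tough left of 6 Tender) from the mean of each gene (rows), as log2(FPKM per exon base + 0.5); red is above and blue below the mean, and the colour scale ends at 2 in each direction. Tough 3 stands out for *ACTA2* and *MYH11*, Tender 4 and Tender 6 for *RGS5*, and Tender 5 for *LMOD1*, which has no transcript there.

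The genes whose levels followed those of the 9 most closely were found by the Pearson r over 12 libraries, each centred on its group mean, with the mean of the 7 genes that had a value above 0 in every library. Of 9010 genes ranked, the first 5 were *NOV* (r = 0.908), a matricellular protein also called CCN3, *GNG12* (0.897), a G protein subunit, *MGP* (0.879), an inhibitor of calcification, *PTGIS* (0.848), the prostacyclin synthase, and *RPS26* (0.842), a ribosomal protein. *MGP* was the most abundant of the first 4, with 13.0 to 61.3 FPKM over the libraries. *RPS26* was listed between 0 and 600 FPKM and had the lowest rho of the 5, 0.606. These r values are descriptions and were not tested.

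Shear force varied within each group, and no gene of the 9 followed it there. Within Tough, 0 of 8 genes had an unadjusted exact permutation p of at most 0.05 over the 720 pairings, against a background of 7% of 8991 genes, and within Tender 0 of 8 against 3.29% of 9001 genes. The largest r values were 0.704 for *TAGLN* in Tough (rho = 0.829, exact permutation p = 0.135 for r and 0.0583 for rho, adjusted p = 0.785 for r) and -0.713 for *LMOD1* in Tender (rho = -0.507, exact permutation p = 0.1 for r and 0.333 for rho, adjusted p = 1 for r). Without the 2 animals farthest from the median shear force, these were 0.293 and 0.132. *LMOD1* was listed at 0 in 4 of the 6 Tender libraries, in part as transcripts assembled but not assigned. Its r in Tender was -0.365 per exon base (exact permutation p = 0.392). Per exon base, 0 of 9 genes had an unadjusted exact permutation p of at most 0.05 in either group. Of all genes, 6.66% did in Tough and 3.39% in Tender.

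The other genes of these pathways were taken from lists and not picked for their values. They are counted in each direction by the sign of the fitted log2 fold change. This is a difference of mean logarithms, and its sign can differ from that of the mean FPKM. Of all 9017 genes tested, 3580 had a positive and 5437 a negative log2 fold change. In the Notch pathway, 7 of 13 listed genes were tested, 2 with a positive and 5 with a negative log2 fold change, none with an unadjusted p of at most 0.05, and a median log2 fold change of -0.072. Among the receptors, *NOTCH2* had a log2 fold change of 0.14 and *NOTCH4*, the endothelial one, of -0.14. The ligand *JAG1* had -0.12, and the ligands *DLL1* and *DLL4* averaged below 0.5 FPKM and were not tested. Of the target genes, *HEYL*, which NOTCH3 is known to induce in mural cells, had 2.29 FPKM in Tough and 2.39 FPKM in Tender on average (-0.072), *HES1* had -0.096 and *HEY1* -0.019. *HEY2* was below the minimum, and *RBPJ*, the DNA-binding partner of all Notch receptors, had 0.20.

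Of 5 genes of the PDGF family, 4 were tested, and all 4 had a positive log2 fold change, with a median of 0.18 and none at an unadjusted p of at most 0.05. *PDGFA* had 0.17, *PDGFC* 0.19, *PDGFD*, a ligand of PDGFRB, 0.14 and *PDGFRA*, the receptor of fibroblasts, 0.22. Of SRF and its cofactors, *SRF* had 16.9 FPKM on average in both Tough and Tender (0.012), and *MYOCD*, the cofactor that drives smooth muscle genes, was listed at 0 in all 12 libraries. *MRTFA*, a cofactor that responds to actin, named *MKL1* in the annotation, had 1.15 FPKM in Tough and 0.779 FPKM in Tender on average. Its log2 fold change was 0.38 with a standard error of 0.14, with an unadjusted p under 0.05 but an adjusted limma p of 0.99993, which did not pass the threshold. *MRTFB* (*MKL2*) had 0.030.

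Among 16 tested of 20 further smooth muscle genes, 10 had a positive and 6 a negative log2 fold change, and their median change was 0.030 on the log2 scale and none at an unadjusted p of at most 0.05. *MYL9*, the regulatory light chain that MYLK phosphorylates, had 17.1 FPKM in Tough and 13.5 FPKM in Tender on average (0.32), *CALD1*, caldesmon, had 0.036 and *SMTN*, smoothelin, -0.28. Several of these genes, such as *DES*, *SYNPO2* and the tropomyosins, are also expressed in skeletal fibres. Among 8 tested of 14 further pericyte genes, 4 had a positive and 4 a negative log2 fold change, with a median of -0.060 and again none at an unadjusted p of at most 0.05. *ABCC9*, a channel subunit on this list, had 3.38 FPKM in Tough and 2.80 FPKM in Tender on average (0.20), and *MCAM* had 0.12. *CSPG4*, which encodes the pericyte proteoglycan NG2, averaged below 0.5 FPKM in both groups. The cells that these levels came from were not tested.

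Markers of the other cells of the loin were counted in the same way, and their part in the levels above was not tested. These counts stand beside 3580 positive and 5437 negative log2 fold changes among all 9017 genes tested, a split that moved with the scaling. Of 11 endothelial markers tested, 1 had a positive and 10 had a negative log2 fold change, with a median of -0.24 and none at an unadjusted p of at most 0.05. Their summed level was 23.1 to 49.1 FPKM in Tough and 36.3 to 56.7 FPKM in Tender, and it was highest in Tender 6 and Tender 4, the libraries in which *RGS5* was highest. *PECAM1* had -0.24, *CDH5* -0.15 and *VWF* -0.27. All 9 fibroblast markers had a positive log2 fold change, with a median of 0.13 and summed levels of 84.3 to 257 FPKM in Tough and 85.0 to 182 FPKM in Tender, and none had an unadjusted p of at most 0.05 (*COL1A1* 0.59, *COL1A2* 0.41 and *COL3A1* 0.71). The skeletal muscle markers were high as the tissue label implies, with *MYH7* at 616 to 1484 FPKM and *MYL1* at 5756 to 9808 FPKM over the libraries. *CKM*, the muscle creatine kinase, was listed at 0 in 7 libraries, so a 0 in these data can be a transcript that was not assembled. Macrophage markers had a median of -0.44 over 6 genes tested (*CD68* -0.88, *CD163* -0.48, *CSF1R* -0.21; *CD68* was listed at 0 in 8 of 12 libraries and had 0.43 per exon base) and adipocyte markers of -0.13 over 4 (*PLIN1* 0.22, *FABP4* -0.20; *LEP* was below the minimum). Only 3 of these genes had an unadjusted p of at most 0.05, all lower in Tough, and none passed the threshold by limma: *HBB* (-0.85, adjusted p = 0.776) and *ALAS2* (-0.69, adjusted p = 0.99993) of the red blood cell list and *LPL* (-0.88, adjusted p = 0.99993) of the adipocyte list.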

How the data were processed

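RNA of 12 loins, 1 library each, was analysed, and another Tender animal of the study was not analysed here. Per the labels and the methods of the study, the authors used Trim Galore to trim reads, TopHat 2.1.0 for mapping to Sscrofa11.1 and Cufflinks 2.2.1 to assemble the transcripts of each library. The deposited files give the FPKM of each assembled transcript, as the authors computed it. The isoform score that the authors deposited, up to 1000, was not used. The files hold no read counts, so depth is not known from them. They list 25798 to 31353 transcripts per library with a median coverage of 5.58 to 6.98, of which 63.9% to 74.8% of those on chromosomes were assigned to a gene. Between libraries, r over genes was 0.812 to 0.900.

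The exons of transcripts were intersected with those of the NCBI annotation (Release 106, Sscrofa11.1) in bedtools 2.31.1. For each gene, FPKM was multiplied by length, summed over its transcripts and divided by the length of its exons, and 12961 genes had a value. limma 3.58.1 (R 4.3.3, with a trend) was fitted to log2(FPKM + 0.5) of the genes whose mean exceeded 0.5 FPKM, so that a fold change understates the change of low genes. Single genes were also tested over the 924 ways to split 12 libraries into 6 and 6. The 95% intervals of log2 fold changes are confidence intervals for the difference of the group means, from the limma standard error. The test was tried on simulated data. Other steps used Python 3.11.15, pandas 2.3.3, scipy 1.17.1 and matplotlib 3.10.9.

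The members and lists were chosen with earlier results of these data known. All 9 genes are named, with every measured Notch, PDGF and SRF gene, the first 3 measured genes of other lists, list genes with an unadjusted p of at most 0.05 and the 5 genes most like the 9. Genes named for standing high in 1 library, *DES*, *SYNPO2*, *SHISA4* and the actins were added after the values were seen. Fits per exon base with 1 library left out, and the use of transcripts with no strand, were also added after the data were seen. Listed genes that the annotation gives no symbol for were not used here. The sequence near 1 gene start and the results of 1 marker list are not reported here.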

Additional observations from a re-analysis of the deposited data

Results flagged for a closer look

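In groups of 6, a library was singled out when its gap to the nearest other library exceeded the share of the range of its group that Dixon's test allows at 95%. Of 20 groups tested, 3 had such a library. Chance gives about 1 in 20 for values that are normal and groups that are independent. The gaps were taken on FPKM without a logarithm, and the groups of different genes share libraries. The count of 3 is thus not read as more than chance. *MYH11* was 7.46 FPKM in Tough 3, with a gap of 0.846 of the range. *MYLK* was 1.11 FPKM in Tough 3, with a gap of 0.684 of the range. *PDGFRB* was 5.13 FPKM in Tender 4, with a gap of 0.700 of the range.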

How the results depend on the processing

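No gene was called in any of the 24 alternatives, and per exon base without Tender 2, a fit added later, 2 genes were called, neither of them among the 9. The number of genes at an unadjusted p of at most 0.05 was 223, 64 of them higher in Tough, and 347 with no filter on low values, 376 with the plain sum of transcript FPKM and 151 to 399 with 1 library left out (377 without Tough 1, 382 without Tender 1 and 399, of which 238 higher in Tough, without Tender 4). The split moved with the scaling, to 133 of 278 higher in Tough after median-of-ratios scaling and 143 of 290 after quantile normalization. Of the 9 genes the count was 1 to 2 with 1 library left out (2 without Tough 6, *ACTA2* joining), and 0 to 1 for shear force (1 without Tough 2). Signs of small log2 fold changes turned: with the 90% rule *TAGLN* had -0.0086, *MYLK* -0.040 and *PDGFRB* 0.084; *PDGFRB* had 0.032 after median-of-ratios scaling, 0.030 after quantile normalization, 0.0051 per exon base and 0.055 as a plain sum, and *NOTCH3* -0.093 as a plain sum. With 1 library left out, the ranges were 0.18 to 0.53 for *ACTA2*, -0.031 to 0.43 for *MYH11*, -0.082 to 0.17 for *TAGLN*, -0.018 to 0.27 for *CNN1*, -0.086 to 0.10 for *MYLK*, -0.17 to 0.12 for *PDGFRB*, -0.092 to 0.13 for *NOTCH3*, 2.76 to 3.64 for *LMOD1*, 0.90 to 1.78 for *LMOD1* per exon base and -0.45 to 0.029 for *RGS5* per exon base. *LMOD1* had 2.41 with the 90% rule (exact permutation p = 0.0584). The cause was not tested. Animals with the same number in both groups share only a number (the correlation of their deviations was -0.22 to 0.023), and with the replicate block 171 genes had an unadjusted p of at most 0.05 and 0 were called. The 9 genes otherwise kept their direction and side of the threshold. Of the listed genes named, *HES1* had 0.10 and *CD68* 0.43 per exon base, against -0.096 and -0.88. Depth, which the files do not give, limits the low levels, as of *MYLK*, whose transcripts had intervals of 11.5% to 45.4% of their level on each side.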
